A study of Homo sapiens with 4 samples.

Results

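The phagocyte NADPH oxidase is the enzyme complex with which neutrophils and monocytes make superoxide. Its membrane part, cytochrome b558, is a dimer of CYBB (gp91phox), which carries electrons from NADPH to oxygen, and CYBA (p22phox), which stabilizes CYBB and docks the cytosolic subunits. In resting cells NCF1 (p47phox) and NCF4 (p40phox) wait in the cytosol, and upon stimulation they move to the membrane together with the GTPase RAC2, which completes the active enzyme. Loss of CYBA, CYBB, NCF1 or NCF4 is known to cause forms of chronic granulomatous disease, in which phagocytes kill ingested microbes poorly.

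The genes CYBA, CYBB, NCF1, NCF4 and RAC2 were followed here, 5 of the 19775 genes that have a probe set of their own in the annotation used. All 12 probe sets annotated to them were kept, whatever their signal, including 1 that names NCF1 together with its near copies NCF1B and NCF1C. This rule for probe sets used no measured value, but the genes were chosen with earlier results of these data known.

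RNA was measured on 4 Affymetrix HG-U133 Plus 2.0 arrays. U937-AE is a clone of the human promonocytic line U937 that carries HA-tagged AML1/ETO, the fusion protein of the t(8;21) translocation of acute myeloid leukemia, under the zinc-inducible mouse metallothionein promoter. U937-Mt cells carry the empty vector and are a bulk population. Both lines, the controls included, received 100 µM ZnSO4 for 8 hours. In each line 3 RNA extractions were pooled and the pool was put on 2 array copies, so that the number of pools is 1 per line. The spread between copies covers hybridization only, no test between the lines was possible, and AML1/ETO and the choice of a clone cannot be told apart as sources of a difference.

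Values are signal intensities on a linear scale, which depend on the probes as well as on the RNA, so that levels of different probe sets are not compared. The floor of an array is its median signal, 119.5 and 129.7 for U937-AE and higher, 146.8 and 153.6, for U937-Mt. Signals below the floor were raised to it, and a probe set was then called if each of the 4 comparisons of arrays between the lines exceeded 1.5-fold in 1 direction. A probe set below the floor on every array therefore has a log2 difference of -0.27 by construction, which is no measurement of change. It was termed measured where its mean log2 signal reached the mean floor in at least 1 pool. As a check of the labels, probe set 216831_s_at of RUNX1T1, the gene that gives the ETO part of the fusion, had signals of 1361.5 and 1299.0 (U937-AE) versus 8.6 and 7.6 (U937-Mt), whereas the other 6 probe sets of this gene were not called. This gene was looked up after its values had been seen.

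RNA of the oxidase was lower in U937-AE for RAC2, CYBA and NCF1, and no probe set of the 5 genes was called higher. RAC2 was 1.79-fold and 1.97-fold lower by its pair of probe sets, and CYBA 1.70-fold lower by the probe set that was above the floor on all arrays. NCF1 was at least 1.93-fold lower, a bound on the mean of the comparisons that holds for the arrays as deposited. CYBB, the catalytic subunit, stayed close to the floor and was not called. Its probe set 203923_s_at was still 1.80-fold lower on average (1.33 to 2.43), and some other rules called it. The called NCF1 probe set was dim too, below the floor on both U937-AE arrays, so the rule of 4 comparisons is what parts these 2 genes. NCF4 differed by less than 1.5-fold. Whether fewer cells expressed these genes or each cell held less of their RNA cannot be told apart in RNA of whole cultures.

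In counts, 5 of 12 probe sets were called lower (41.7%), 0 higher and 7 not called, while over all 54613 probe sets 2.74% were called lower and 1.29% higher. The median log2 difference was -0.56 over the 12, against -0.27 over all probe sets. The latter is the value that the floors give a probe set below them on every array, and no measured change. Of the 12, 9 were measured, but CYBA 229445_at, CYBB 203922_s_at and NCF1 214084_x_at passed through U937-Mt alone, where they were higher, so no share or median over the 9 is given. The count rests on how the arrays were scaled. It was 2 when the arrays were shifted to the same median and 1 when they were scaled to the hybridization spike-ins, against 5 after quantile normalization.

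For 3 of the 5 genes, CYBA, CYBB and NCF1, RefSeq promoters of the build GRCh38.p14 were at hand. They are shown because these genes share a function and have been studied as targets of myeloid transcription factors, and because AML1/ETO binds DNA through the AML1 part. Each runs from 250 bases before the gene's start to 50 bases after it, 5′ to 3′ on the gene's strand, at chr16:88651004-88651303 on the minus strand for CYBA, chrX:37779809-37780108 on the plus strand for CYBB and chr7:74773761-74774060 on the plus strand for NCF1. Capitals mark TTCCTC, the reverse complement of GAGGAA, a core of sites of the ETS factor PU.1. These letters were picked for the search after the promoters had been read.
CYBA: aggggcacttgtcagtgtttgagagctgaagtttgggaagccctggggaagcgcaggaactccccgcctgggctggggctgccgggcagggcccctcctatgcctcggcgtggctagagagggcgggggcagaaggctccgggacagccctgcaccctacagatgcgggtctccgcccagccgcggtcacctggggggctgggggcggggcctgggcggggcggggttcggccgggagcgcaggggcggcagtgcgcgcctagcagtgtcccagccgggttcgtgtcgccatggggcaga
CYBB: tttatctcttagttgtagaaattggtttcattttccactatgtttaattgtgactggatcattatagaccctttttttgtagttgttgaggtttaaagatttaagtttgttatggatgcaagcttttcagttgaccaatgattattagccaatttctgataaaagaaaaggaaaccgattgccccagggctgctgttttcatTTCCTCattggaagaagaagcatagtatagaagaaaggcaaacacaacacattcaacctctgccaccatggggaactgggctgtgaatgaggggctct
NCF1: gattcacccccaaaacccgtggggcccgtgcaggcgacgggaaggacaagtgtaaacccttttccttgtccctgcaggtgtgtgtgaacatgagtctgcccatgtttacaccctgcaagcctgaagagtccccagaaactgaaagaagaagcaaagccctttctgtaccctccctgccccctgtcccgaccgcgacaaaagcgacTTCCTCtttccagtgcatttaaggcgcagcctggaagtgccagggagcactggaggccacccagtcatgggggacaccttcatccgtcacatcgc
Searched on both strands, GAGGAA matched once in CYBB, with its first base at -48 from the start, and once in NCF1, at -45. It was not found in the window of CYBA, and 27.9% of 35116 promoters of 300 bases hold it. The letters TGTGGT and TGCGGT of the AML1 core were in none of the 3 windows and either was in 19.6% of all promoters (13.1% and 7.29% singly), so that their absence says only that the windows lack these letters. The bases G and C made up 72.7% of the CYBA, 37.7% of the CYBB and 57.3% of the NCF1 window, around a median of 58.7% over all promoters. A match is a description of the sequence and no evidence that a factor binds there.

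The membrane subunits come first. CYBA probe set 203028_s_at gave signals of 2692.9 and 2528.5 (U937-AE) versus 4768.4 and 4110.1 (U937-Mt). Both U937-AE signals lay below both U937-Mt signals, and array copies of a line differed by at most 1.16-fold. U937-AE was 1.70-fold lower (range of the 4 comparisons 1.53 to 1.89, log2 difference -0.76 ± 0.13, SD of the comparisons), with the lowest comparison just past the 1.5-fold limit.

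The second CYBA probe set, 229445_at, gave 62.2 and 90.5 (U937-AE) versus 333.8 and 267.4 (U937-Mt). It was below the floor on both U937-AE arrays and above it on both U937-Mt arrays, so its mean difference as deposited is a bound. It was at least 2.40-fold lower (2.06 to 2.79), the same direction as the brighter probe set of this gene.

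CYBB was dim in both lines. Its probe set 203923_s_at gave 118.2 and 168.3 (U937-AE) versus 290.6 and 224.3 (U937-Mt). The lines did not overlap, but 1 U937-AE array lay below its floor and the comparisons ran from 1.33-fold to 2.43-fold lower around 1.80-fold, so that the rule of 4 comparisons was not met. Leaving out either the second U937-AE copy (log2 difference -1.10) or the second U937-Mt copy (-1.04) met the rule, which then covers fewer comparisons. So did the mean of the 4 comparisons taken alone, and limma called it too (adjusted p = 0.0395, from the spread between copies only), so that the call of CYBB hung on the rule and on single arrays.

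Probe set 203922_s_at of CYBB gave 96.2 and 145.7 (U937-AE) versus 140.6 and 195.8 (U937-Mt), and here the lines overlapped. Its log2 difference of -0.36 ± 0.29 was little larger than the spread of the comparisons. Probe set 217431_x_at was below the floor on all arrays, with signals from 18.0 to 81.7. Probe set 233538_s_at gave 121.5 and 125.4 (U937-AE) versus 87.5 and 47.4 (U937-Mt), the opposite order, but did not reach the level termed measured. Of these, 203922_s_at counted as measured through U937-Mt alone, where it was higher. That both measured probe sets of CYBB had a negative difference therefore says little. Probe sets 217431_x_at and 233538_s_at were at background.

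**Figure D1:**
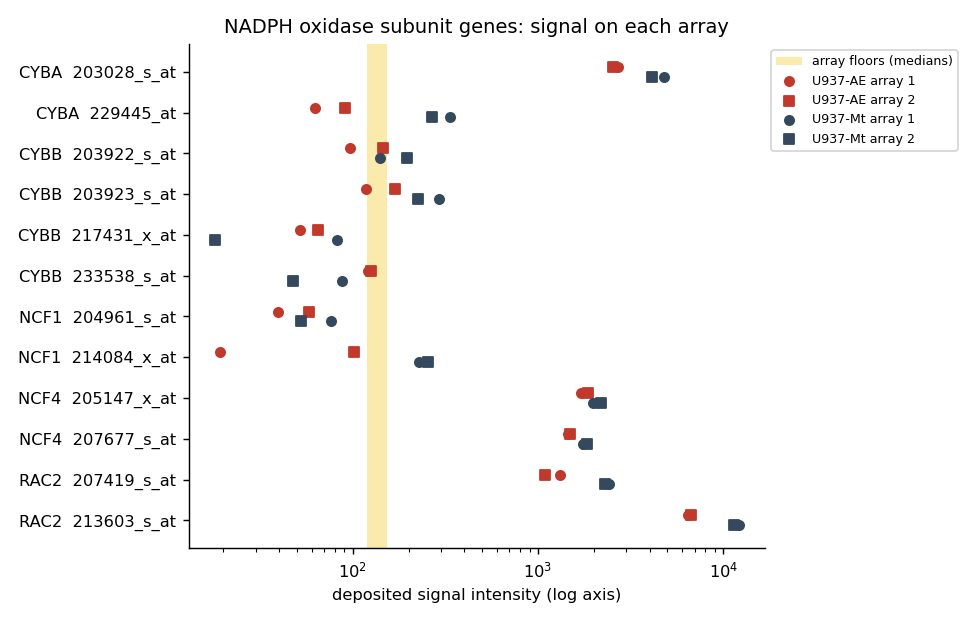
Deposited signal intensity (log axis) of the 12 probe sets of CYBA, CYBB, NCF1, NCF4 and RAC2. Red marks are U937-AE and dark marks U937-Mt arrays (circles copy 1, squares copy 2), 1 pool per line, and the yellow band spans the array floors from 119.5 to 153.6. RAC2 and CYBA 203028_s_at lie far above the band with the lines apart, while the CYBB probe sets lie around or below it.

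Among the cytosolic subunits, NCF1 is the organizer that bridges the complex to CYBA once it is phosphorylated. Its probe set 214084_x_at gave 19.3 and 101.1 (U937-AE) versus 228.2 and 253.8 (U937-Mt). Only the U937-Mt arrays were above their floors. On average over the comparisons, and as deposited, NCF1 was at least 1.93-fold lower in U937-AE (1.76 to 2.12, log2 difference -0.95 ± 0.11). Since the floor hides the low signals, that SD holds the spread of the floors and of U937-Mt only.

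The other NCF1 probe set, 204961_s_at, names NCF1, NCF1B and NCF1C and stayed below the floor everywhere, with signals of 39.6, 57.9, 76.4 and 52.6. The suffix of 214084_x_at marks probes that may also bind other transcripts. RNA of NCF1 and of its near copies may therefore be mixed in this signal, and no second probe set of NCF1 measured the difference.

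NCF4 binds a membrane phosphoinositide and prolongs the activity of the complex. Its probe set 205147_x_at gave 1698.4 and 1855.2 (U937-AE) versus 1982.0 and 2197.1 (U937-Mt), and probe set 207677_s_at gave 1457.6 and 1492.9 against 1759.8 and 1829.6. The lines did not overlap on either. The differences were 1.18-fold (1.07 to 1.29) and 1.22-fold (1.18 to 1.26), under the limit of the call. Nor was their direction settled. The log2 difference of 205147_x_at went from -0.23 to 0.04 with arrays shifted to the same median and to 0.11 with the spike-ins, and that of 207677_s_at from -0.28 to 0.06 with the spike-ins.

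RAC2, the Rac GTPase restricted to blood cells, was measured well above the floor by both of its probe sets. Probe set 213603_s_at gave 6441.3 and 6727.7 (U937-AE) versus 12124.0 and 11483.6 (U937-Mt). Copies of a line differed by at most 1.06-fold and the lines by 1.79-fold (1.71 to 1.88, log2 difference -0.84 ± 0.06). Probe set 207419_s_at gave 1309.9 and 1091.4 against 2421.5 and 2294.9, a difference of 1.97-fold (1.75 to 2.22, -0.98 ± 0.16). All signals of both probe sets were far above the floor, and the ranges of their comparisons overlapped.

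Signals of the same order as these, both U937-AE below both U937-Mt, were found in 8 of the 12 probe sets and the opposite order in 1. Over all probe sets these shares were 32.3% and 17.6%, so that the order of signals alone says little about a probe set.

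**Figure D2:**
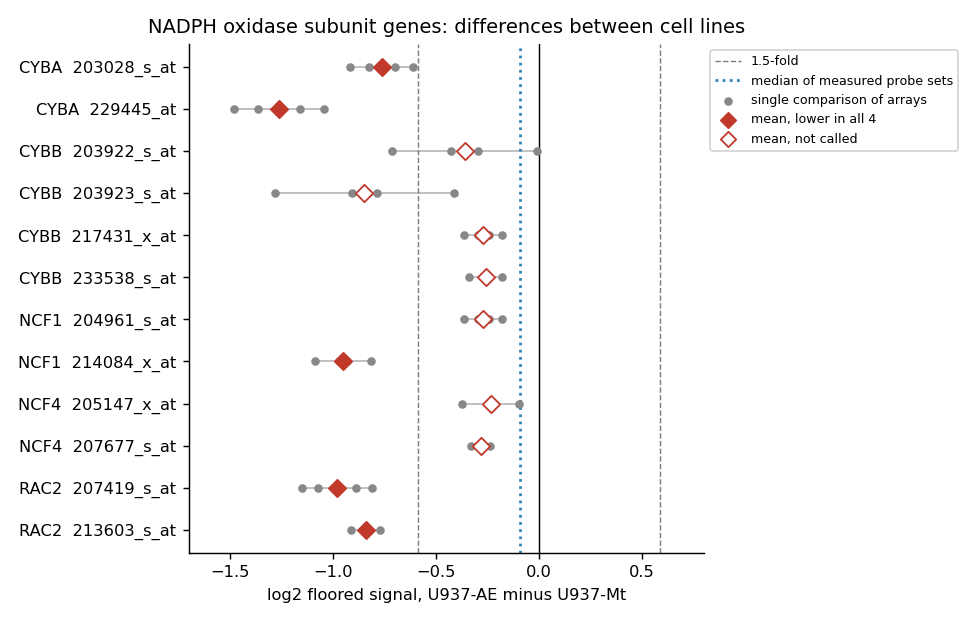
Log2 difference in signal, raised to the floor, between U937-AE and U937-Mt for each probe set. Grey points are the 4 comparisons of arrays, diamonds their mean (filled where all 4 passed 1.5-fold, dashed lines) and the dotted line is the median of measured probe sets (-0.09). The 5 filled diamonds belong to CYBA, NCF1 and RAC2, and those near -0.27 for CYBB and NCF1 are set by the floors.

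The differences depended on the scaling of the arrays. The median of all measured probe sets was -0.09 as deposited, 0.01 after quantile normalization, 0.18 with arrays shifted to the same median and 0.25 with the spike-ins, and the calls over all probe sets went from 1496 lower and 707 higher to 508 lower and 2850 higher with the spike-ins. RAC2 213603_s_at stood at -0.84, -0.92, -0.57 and -0.50 in these 4 settings, and CYBA 203028_s_at at -0.76, -0.85, -0.49 and -0.42. Both kept their sign and lost the call in the last 2 settings, as did RAC2 207419_s_at. NCF1 214084_x_at lost it with the spike-ins (-0.61). CYBA 229445_at was called in all 4. Quantile normalization moved RAC2 and CYBA 203028_s_at away from 0 and NCF1 214084_x_at (-0.95 to -0.70) and CYBA 229445_at (-1.26 to -1.03) towards it. Relative to the median of measured probe sets, the differences were -0.75 and -0.89 for RAC2, -0.67 for CYBA 203028_s_at, and -0.14 and -0.19 for NCF4.

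Ratios of 2 probe sets on the same array do not change when a whole array is scaled. The pairs were chosen after the values had been seen. RAC1, the Rac protein of most tissues, served as the first partner. Its 4 probe sets had log2 differences from 0.09 to 0.43 and were not called. The ratio of RAC2 213603_s_at to the brightest RAC1 probe set was 0.364 and 0.354 (U937-AE) versus 0.674 and 0.701 (U937-Mt). It was 1.91-fold lower in U937-AE (log2 difference -0.94, range -0.98 to -0.89), and the lines stood well apart. For RAC2 to NCF4 205147_x_at the ratio was lower by -0.61 on the log2 scale (-0.75 to -0.46), and for CYBA 203028_s_at to the same NCF4 probe set by -0.53 (-0.82 to -0.24). The ratio of RAC2 to CYBA overlapped between the lines (-0.08, -0.22 to 0.07). The ratio to RAC1 was also lower for CYBA (-0.86, -0.99 to -0.72) and for NCF4 (-0.33, -0.48 to -0.17), without overlap. Unequal change of RAC2 and NCF4 was thus seen without any scaling, and a difference between the changes of RAC2 and CYBA was not detectable.

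Genes around the oxidase were taken from 8 lists, also chosen with earlier results of these data known. Of their 80 genes 71 had a probe set of their own, and each was taken by its brightest one. In this set 9 were called lower (12.7%), 1 higher and 61 not called, beside 4% lower and 1.7% higher of all 19775 genes.

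Of 6 partners of the oxidase, 1 was called lower. This was HVCN1, the proton channel that carries off the charge the oxidase leaves behind, with 371.5 and 279.4 (U937-AE) versus 1032.7 and 758.2 (U937-Mt), 2.75-fold lower (2.04 to 3.70). The lines did not overlap. CYBC1, the chaperone of cytochrome b558, differed by a log2 of -0.11 and RAP1A, a small GTPase found with the cytochrome, by 0.22, neither called. None of 7 genes of other NADPH oxidases, such as NOX4 and DUOX2, was measured by its brightest probe set or called by any. Signals of NOX5, taken as the brightest by the naming rule, ran from 30.4 to 199.0. A further NOX1 probe set was above the floor in U937-Mt, with 87.8 and 76.1 (U937-AE) versus 147.3 and 184.4 (U937-Mt).

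Rac proteins are switched on by exchange factors. Of 11 regulators 3 were called lower and 1 higher. VAV2 was 2.16-fold lower (1.99 to 2.35), TIAM1 on average and as deposited at least 2.13-fold lower (1.83 to 2.49) and PREX1 2.04-fold lower (1.70 to 2.44). All 3 are exchange factors. With the spike-ins TIAM1 and PREX1 lost the call, PREX1 also with the same median. The second probe set of PREX1 was not called (1.82-fold lower), nor were the others of TIAM1 and VAV2. VAV3, an exchange factor named here after its values had been seen, went the other way. It gave 3175.9 and 3218.3 (U937-AE) versus 1612.4 and 1715.5 (U937-Mt), 1.92-fold higher (1.85 to 2.00), and all 3 of its probe sets were called higher. VAV1, the family member of blood cells, was 1.56-fold lower with comparisons from 1.35 to 1.81, not called.

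Kinases phosphorylate the cytosolic subunits before assembly. Of 12 kinases and lipid enzymes 1 was called by its brightest probe set, PRKCD, a protein kinase C that phosphorylates NCF1. It gave 335.6 and 178.5 (U937-AE) versus 1136.2 and 1262.3 (U937-Mt), 4.89-fold lower (3.39 to 7.07). PRKCB, another kinase of NCF1, differed by 1.14-fold. For PLD1, a phospholipase that makes phosphatidic acid, a dimmer probe set was called higher (2.38-fold, 1.53 to 3.68) and the brightest was not (1.12-fold higher).

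Of 9 genes listed as transcription factors or cofactors of oxidase genes 3 were called lower and 0 higher by their brightest probe sets. CEBPA, a factor of granulocyte and monocyte differentiation, gave 735.5 and 898.3 (U937-AE) versus 5820.9 and 5545.9 (U937-Mt), 6.99-fold lower (6.17 to 7.91). IRF8, which acts with PU.1 on the CYBB promoter, gave 228.5 and 166.5 against 870.5 and 765.1, 4.18-fold lower (3.35 to 5.23). SPI1, which encodes PU.1, gave 405.3 and 358.5 against 1007.4 and 1103.1, 2.77-fold lower (2.49 to 3.08). The lines did not overlap for any of the 3, and each was called under all 3 other scalings. The other 6 were not called, among them ELF1 and IRF2, with log2 differences of 0.43 and 0.42. A dimmer probe set was called higher for each of IRF1 (2.03-fold, 1.72 to 2.40) and CREBBP (1.97-fold, 1.63 to 2.37), whose brightest ones differed by -0.02 and 0.01 on the log2 scale, so the probe sets of these 2 genes disagreed.

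Downstream of the oxidase, superoxide becomes hydrogen peroxide, from which myeloperoxidase (MPO) makes hypochlorous acid. Of 11 genes of superoxide and peroxide handling MPO alone was called, at 1898.0 and 1557.9 (U937-AE) versus 16116.7 and 14590.8 (U937-Mt), 8.92-fold lower (7.69 to 10.3). Its second probe set was 11.1-fold lower (10.4 to 11.7). SOD1 and CAT, which dispose of superoxide and peroxide, had log2 differences of 0.08 and -0.38 and were not called. Nor were any of 7 enzymes of NADPH supply. The nearest to a call was TALDO1, 1.55-fold lower, with 1 of the 4 comparisons just under 1.5-fold, and the brightest, TKT, had a log2 difference of -0.17, which turned to 0.10 with the same median and 0.18 with the spike-ins.

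**Figure D3:**
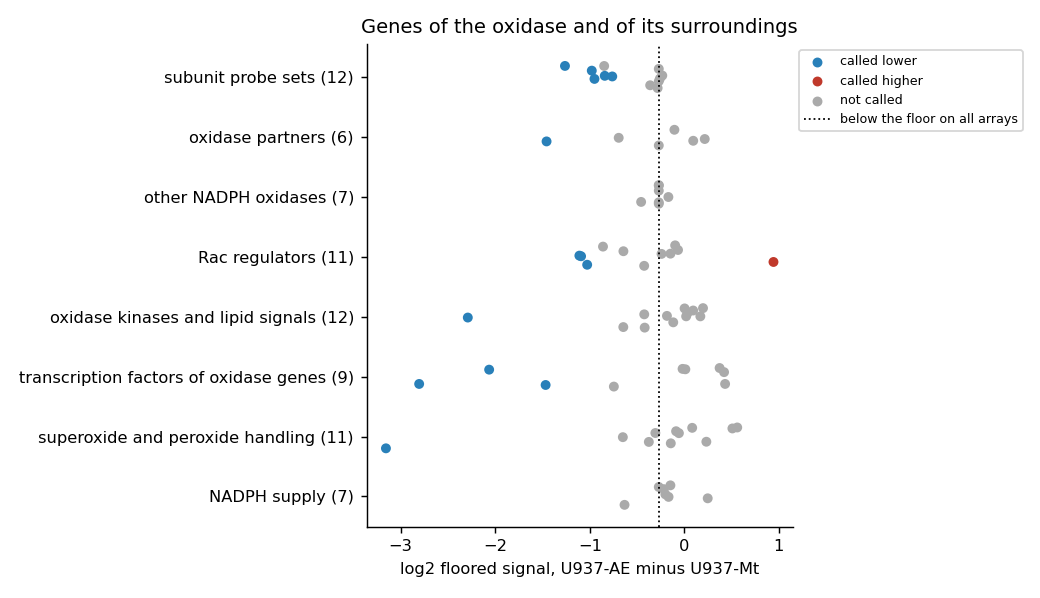
Log2 difference in signal, raised to the floor, of the 12 oxidase probe sets and of the genes of 7 related lists (number in parentheses). Each point is a probe set or gene (blue called lower, red called higher, grey not called), and the dotted line marks where a probe set below the floor on all arrays falls (-0.27). The genes MPO, CEBPA and PRKCD lie farthest to the left, and VAV3 is the 1 red point.

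Of 8 genes listed as monocytic markers with a probe set, 3 were called lower and 1 higher, beside 4% and 1.7% of all genes. The other 4 were not called, among them CD4 (log2 difference -0.10) and CSF1R (-0.78). Not all genes of this list, such as PTPRC and ITGB2, are confined to that lineage. The summed signals of the 8 genes ran from 17168.8 to 18441.5 in U937-AE and from 23914.2 to 24482.9 in U937-Mt. ITGB2 and ITGAM, the chains of the complement receptor of phagocytes, were 2.45-fold (2.25 to 2.67) and 2.16-fold (2.08 to 2.24) lower and LYZ, lysozyme, 2.05-fold lower (1.64 to 2.55), the last not called with the same median or the spike-ins. The second probe set of ITGAM showed no such difference (182.0 and 156.2 versus 124.4 and 178.9, log2 difference 0.06), that of LYZ was 1.90-fold lower (1.27 to 2.85) and not called, and of the other 2 of ITGB2 1 was called lower (2.20-fold). PTPRC (CD45), named after its values had been seen, was 1.56-fold higher (1.52 to 1.60), a call that quantile normalization removed. Its other probe sets above the floor were called higher too (1.65-fold, 1.58 to 1.72, and 1.83-fold, 1.74 to 1.93). CD14 and FCGR1A, markers of mature monocytes, were below the floor on all arrays. In the lists of T, B, erythroid and megakaryocytic, and fibroblast and epithelial cells no gene was called. Their summed signals ran from 317.4 to 483.4 and from 452.4 to 509.6 (T), 1523.8 to 1774.7 and 1455.7 to 1587.5 (B), 539.0 to 610.3 and 473.9 to 489.0 (erythroid) and 792.0 to 966.7 and 733.4 to 983.8 (fibroblast) in U937-AE and U937-Mt. CD3D, CD3E and CD3G were below the floor on all arrays, whereas CD79A gave signals from 830.6 to 1051.4 without a call. The part of the monocytic markers in the oxidase values was not tested.

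The mean centred profile of the 5 genes, each by its brightest probe set, was -0.43 and -0.29 (U937-AE) versus 0.40 and 0.33 (U937-Mt). Of 10679 genes compared with it over 4 arrays, the closest by root mean square distance were INPP5A (0.020 on the log2 scale), DISC1 (0.020), SPOP (0.020), P3H1 (0.021) and RAB20 (0.024). All 5 were called lower, with log2 differences from -0.69 to -0.76. With 4 arrays of 2 pools such a likeness holds little beyond the difference between the lines.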

How the data were processed

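RNA of 1 pool per cell line, each from 3 extractions, was hybridized to 2 copies of the HG-U133 Plus 2.0 array. The authors deposited linear signal intensities made with GCOS (version not given in the sources used here), which corrects the background, combines the probes of a set and scales each array. The spike-ins, added at hybridization, were higher in U937-Mt (mean log2 11.5 to 11.6 against 11.2 to 11.3). Arrays correlated at 0.91 to 0.94. The correlation was 0.935 between the U937-AE copies and 0.919 between the U937-Mt copies. Between arrays of different lines it was 0.910 to 0.916, hardly below that of the U937-Mt copies. The number of arrays limits the precision.

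Of 54675 probe sets 62 controls were left out, and 41097 had 1 symbol, 1801 several and 11777 none in the annotation used. Intensities were raised to the 50th percentile of the array and log2 was taken. A call needed all 4 comparisons past 1.5-fold, as a description of 2 pools. A gene took the brightest probe set naming it alone. Named were the 5 genes, up to 3 called genes per list by size of difference (otherwise the brightest), RAC1, and the 5 genes nearest in profile. All other genes given with values were chosen after their values had been seen. The genes followed, the 13 lists and the rules were chosen with earlier results of these data known. Alternatives changed the scaling, floor, rule and arrays (Python 3.11.15, pandas 2.3.3, numpy 2.4.6, scipy 1.17.1, limma 3.58.1 in R 4.3.3). Array numbers were not taken as pairs. Some items are not analysed here.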

Additional observations from a re-analysis of the deposited data

How the results depend on the processing

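The number of oxidase probe sets called lower, 5 as reported, was 2 with arrays shifted to the same median, 1 with the spike-ins, 3 with the floor at the 75th percentile, 1 with a 2-fold rule, and 1 and 0 by the methods' t-test (fold above 2) before and after Benjamini-Hochberg adjustment. The adjusted t-test called 0 of all probe sets lower and 0 higher, so its 0 says nothing particular of these genes. Without single arrays the count was 5 to 6, but fewer comparisons then had to pass and it could not fall. None was called higher in any setting run. The median of the 12 log2 differences (-0.56) moved to -0.29, -0.22 and -0.10 with the same median, the spike-ins and the 75th percentile, and ran from -0.61 to -0.43 without single arrays. Related genes called lower (9) rose to 16 by the mean difference or by limma with the replicate block. Without single arrays, where the rule is easier to meet, they ran from 11 to 13. By the adjusted t-test, which called 0 of all probe sets, they were 0. Those called higher (1) were 3 with the same median, 5 with the spike-ins, 1 to 2 without single arrays, and 0 by the 2-fold rule and by both t-tests.

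Signs that turned were those of the median of measured probe sets, at 0.011 (quantile), 0.0094 (75th percentile), 0.18 (same median) and 0.25 (spike-ins), of NCF4 205147_x_at (0.037 same median, 0.11 spike-ins) and 207677_s_at (0.061 spike-ins) and of TKT (0.10 same median, 0.18 spike-ins). The dim probe sets turned too, CYBB 217431_x_at to 0.00039 (quantile), 0.073 (spike-ins) and 0.60 (no floor), CYBB 233538_s_at to 0.011 (quantile), 0.012 (same median), 0.085 (spike-ins) and 0.94 (no floor, and 25th percentile), and NCF1 204961_s_at to 0.00039 (quantile) and 0.073 (spike-ins).

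Both dim calls, CYBA 229445_at and NCF1 214084_x_at, were lost at the 75th percentile (-0.10), where the floor exceeds their signals. Array numbers did not pair the samples (deviations of both first arrays correlated at 0.03), and limma with the replicate block called 6 oxidase probe sets lower, as it did without. Signal over background limits what can be said of CYBB and NCF1. The cause of the other changes was not tested.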
